A study of Mus musculus with 2 samples.

Results

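The clustered protocadherins are cadherin-like surface proteins encoded side by side on mouse chromosome 18. All protein-coding genes whose symbol starts with Pcdha, Pcdhb or Pcdhg were taken as members, which gave 57 of the 21887 protein-coding genes in the gene table. There were 14 Pcdha, 22 Pcdhb and 21 Pcdhg genes. Their domain was set as the 3 cluster spans plus 100 kb to either side, chromosome 18, 36830285 to 37941873 in mm10. It held 61 of the 138387 entries of the peak list, in 37 separate intervals. Genes within Pcdha and within Pcdhg overlap, and so do the 100 kb flanks of the clusters, so each entry was counted once.

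The peak list came from ATAC-seq, in which the Tn5 transposase cuts and tags accessible DNA. The 1 group was GFP-positive cells sorted by FACS from C57/Bl6 mouse embryos carrying Hb9::GFP, at embryonic day 10.5, labelled as spinal motor neurons. Hb9 is an older name of the homeobox gene Mnx1, whose regulatory sequence drives the GFP, so any cell in which the transgene was active could be sorted. The 2 replicates were pooled by the authors, and no control, input or other cell type was analysed here, so no value below has a replicate error or a test between conditions. Each entry is a summit with a fold over the local background and a −log10 q, both the authors' values. The reads at each summit and the background were worked out from the deposited values, and 95% Poisson intervals of those reads cover counting error only. The median entry on the chromosomes of the whole list had 24 reads and 3.14-fold. All 7 motor neuron markers (Mnx1, Isl1, Isl2, Lhx3, Chat, Slc18a3 and Slc5a7) had an entry within 1 kb of a gene end or listed start, and so did 4 of 4 progenitor, 3 of 3 muscle, 2 of 3 endothelial and 1 of 4 blood markers. Over all protein-coding genes the share was 69.3%. An accessible start is not a measure of expression.

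In Pcdha and Pcdhg, each variable exon has a promoter of its own and encodes the extracellular and membrane-spanning part of a protein. It is spliced to constant exons at the far end of the cluster, which encode a shared cytoplasmic tail. Pcdhb genes have variable exons only. Neurons are known to use a small, largely random choice of the alternate promoters, which gives each cell its own set of surface proteins for recognising and avoiding its own branches. The C-type members (Pcdhac1, Pcdhac2, Pcdhgc3, Pcdhgc4 and Pcdhgc5) are known to be used in a more regular way across neurons. CTCF and cohesin are known to loop promoters to distant enhancers in this locus. Members of Pcdha and of Pcdhg share their higher-coordinate end in the gene table, so the lower-coordinate end was taken as the start, and likewise for Pcdhb.

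Accessible sites were listed at 4 of the 5 C-type starts, were weaker and at a smaller share of the alternate starts, and were not listed across Pcdhb. In all, 14 of the 57 members (24.6%, exact 95% binomial interval 14.1 to 37.8%) had an entry within 1 kb of their start. Over the 17492 protein-coding genes with a listed start on other chromosomes the share was 66.5%. A gene there counted if any of its listed starts had an entry, and the highest-fold entry was kept. For each member only the lower-coordinate end was used. The medians and ranks of gene starts given below carry the same difference. By cluster, the counts were 4 of 14 for Pcdha, 0 of 22 for Pcdhb and 10 of 21 for Pcdhg. The members share one stretch of chromosome and one set of reads, so they are not independent replicates, and the binomial intervals treat them as if they were. Among the C-type members 4 of 5 had a start entry, and among the other 52 members 10 had one. With entries of a q-value under 0.05 alone, 8 members had one (4 C-type and 4 alternate), against 65.5% of the 17492 genes with a listed start.

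**Figure D1:**
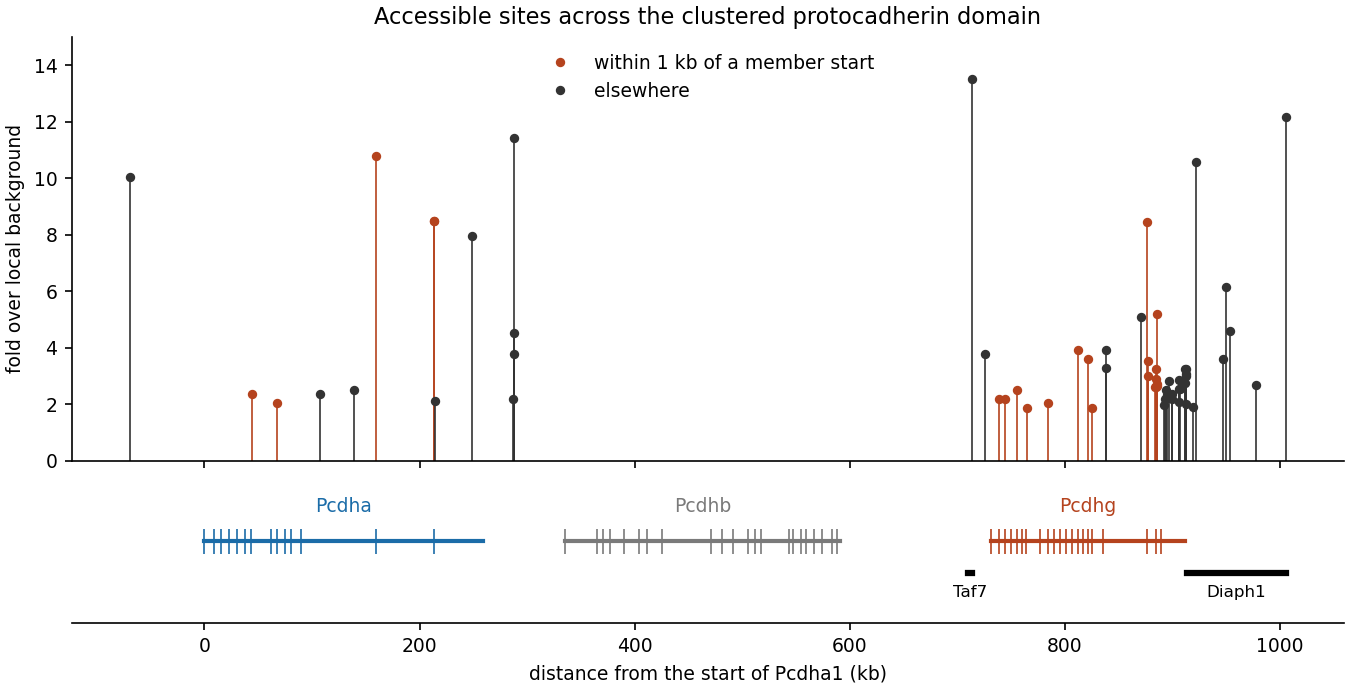
Fold over the local background of each of the 61 entries (vertical axis) against the distance of its summit from the start of Pcdha1 in kb (horizontal axis), with the start of every member as a tick on its cluster below. The tall sites lay at C-type starts, at ends of the neighbouring genes Taf7 and Diaph1 and between, inside or beside the clusters, and no entry was listed across Pcdhb.

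The strongest start of any member was that of Pcdhac1, at chromosome 18, 37089582 to 37090391. Its summit lay 197 bp before the annotated start, with 10.8-fold enrichment and 69 reads (53.7 to 87.3) over a background of 5.50 reads. The fold was above that of 77.7% of the gene starts that had an entry, while the reads were above those of 28.4% of them. Pcdhac2, which is known to be needed by serotonergic axons for even spreading, had 8.50-fold and 83 reads (66.1 to 103) over a background of 8.88 reads. Its interval, 37143426 to 37144826, was 1401 bp wide and held 3 summits, of which 2 lay within 1 kb of the start. Just outside that window, the remaining summit lay 1103 bp past the start and had 2.10-fold.

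Pcdhgc3 had the most reads of any member start, 121 (100 to 145), over a background of 13.4 reads. At 8.45-fold it stood close to the median of all gene starts with an entry, which was 8.47-fold and 102 reads. Its interval ran from 37806022 to 37807435 with 3 summits. Pcdhgc4, the isoform known to be required for the survival of many neurons, had a lower 5.19-fold with 55 reads (41.4 to 71.6), over a background of 9.80 reads. Its interval was the widest of the domain, 1941 bp from 37814149 to 37816089, wider than that of 97.6% of gene starts with an entry. That interval held 7 summits between 807 bp before and 882 bp past the start, at 2.61- to 5.19-fold.

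The remaining C-type member, Pcdhgc5, had no entry within 1 kb of its start at 37819546. The nearest was a site of 1.96-fold lying 2983 bp past it, with 18 reads over a background of 8.68 reads. Its q-value was not under 0.05. That background is above the 5.37 reads at the alternate starts, so a pileup as low as theirs might not be listed near Pcdhgc5. In its listed entries Pcdhgc5 thus differed from Pcdhgc4, whose start lies at 37815079, although both stand beside the same constant exons.

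Where an alternate member had a start entry, it was weak beside most gene starts with an entry. Of 12 alternate Pcdha genes, Pcdha7 (2.36-fold, 14 reads) and Pcdha9 (2.04-fold, 12 reads) had a start entry. The other 10, Pcdha1 to Pcdha6, Pcdha8, Pcdha10, Pcdha11 and Pcdha12, had none, and their nearest entries lay between 5.32 kb (Pcdha8) and 43.9 kb (Pcdha1) from the start. The entry of Pcdha7 had a −log10 q of 1.42 and that of Pcdha9 0.61, so of this pair only Pcdha7 had a q-value under 0.05.

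Among the 18 alternate Pcdhg genes 8 had a start entry. The strongest 2 were of the B subfamily. Pcdhgb6 had 3.93-fold and 24 reads (15.4 to 35.7) at 37741945 to 37742449, and Pcdhgb7 had 3.61-fold and 22 reads (13.8 to 33.3) at 37751565 to 37751997. Their summits lay 74 and 72 bp past the start. These neighbouring B genes are separated by Pcdhga10, which had no start entry.

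Of the A subfamily, Pcdhga4 had 2.51-fold and 15 reads, and Pcdhga2 and Pcdhga3 had 2.20-fold and 13 reads each. Pcdhga7 had 2.04-fold and 12 reads. Pcdhga5 and Pcdhga11 had 1.89-fold and 11 reads each, and 11 reads was the smallest pileup in the whole list. Only Pcdhga4 in this subfamily had a q-value under 0.05. Pcdhga1, Pcdhga6, Pcdhga8, Pcdhga9, Pcdhga10 and Pcdhga12 had no start entry, nor did Pcdhgb1, Pcdhgb2, Pcdhgb4 and Pcdhgb5. Their nearest entries lay 2.46 kb (Pcdhga12) to 11.2 kb (Pcdhgb5) away.

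**Figure D2:**
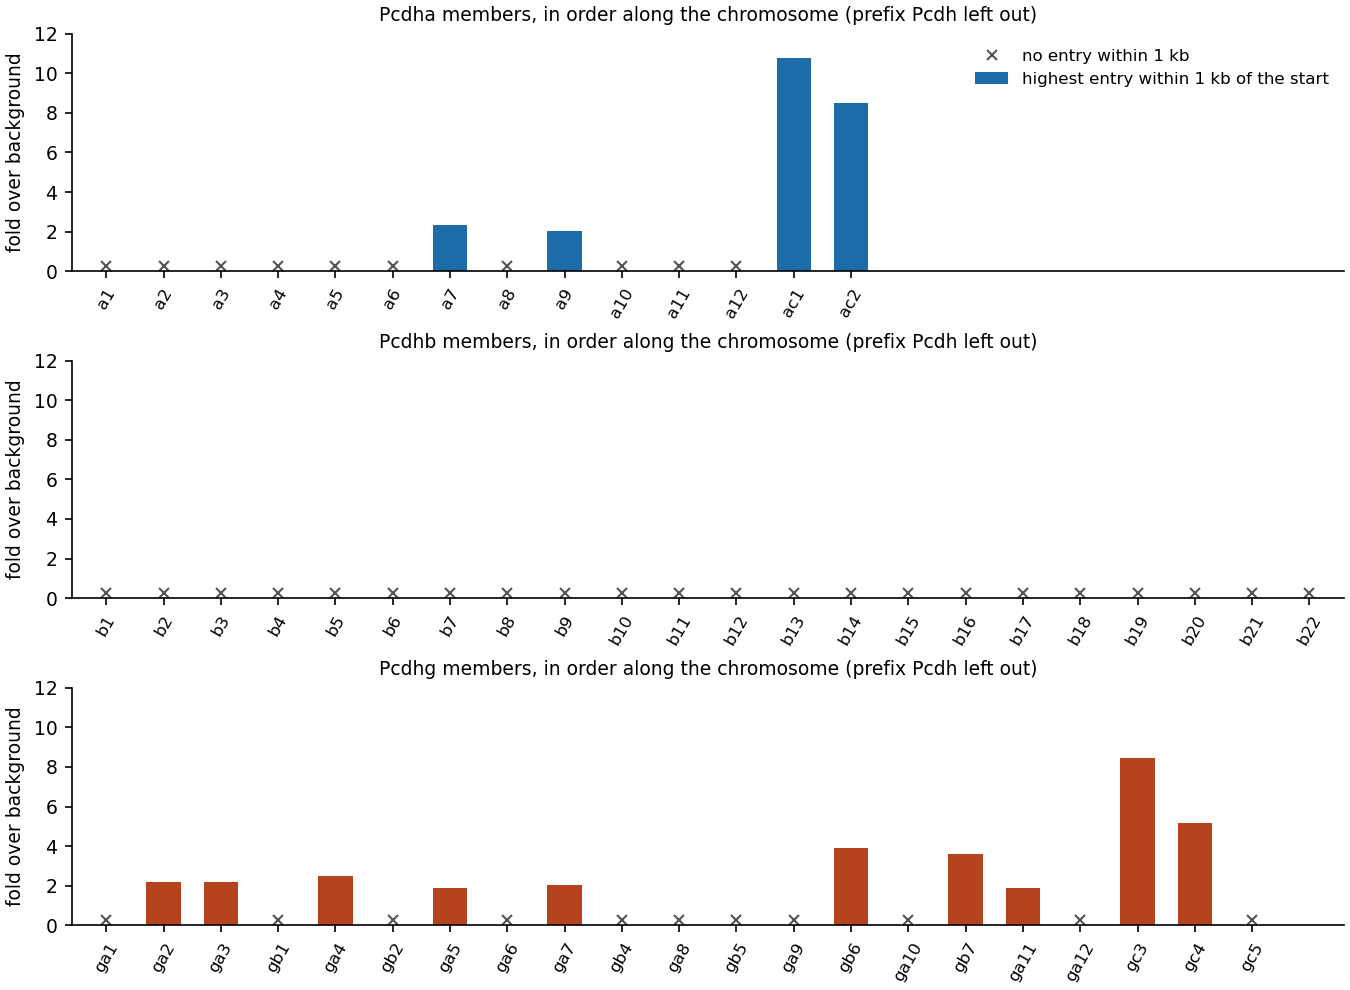
Fold over the local background of the highest entry within 1 kb of the start (bars) of each member in chromosome order, by cluster; crosses mark members without an entry there. Bars of Pcdhac1, Pcdhac2, Pcdhgc3 and Pcdhgc4 stood at 5.19 to 10.8-fold, those of alternate members at 1.89 to 3.93-fold, and no Pcdhb member had a bar.

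Among starts with an entry, C-type and alternate members did not overlap in fold or reads. Pcdhgc5 and 20 alternate members had no start entry and are outside this comparison. The 4 C-type starts with an entry had 5.19 to 10.8-fold (median 8.48) and 55 to 121 reads, and the 10 alternate starts with one had 1.89 to 3.93-fold (median 2.20) and 11 to 24 reads. Interval widths did not overlap either, at 810 to 1941 bp for C-type and 196 to 505 bp for alternate starts. All gene starts with an entry had a median width of 1045 bp. The local background was 5.50 to 13.4 reads at the C-type starts and 5.37 reads, the lowest value in the list, at the alternate starts. The fold of the strongest alternate start, that of Pcdhgb6, was above only 9.96% of gene starts with an entry, and that of the weakest above 0.258%. With 11 to 24 reads each, the Poisson intervals of the alternate starts all overlapped, and the order among these starts was not tested. A low pileup over a mixed cell population may come from few cells with an accessible start or from weak access in many, and these cannot be told apart here.

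**Figure D3:**
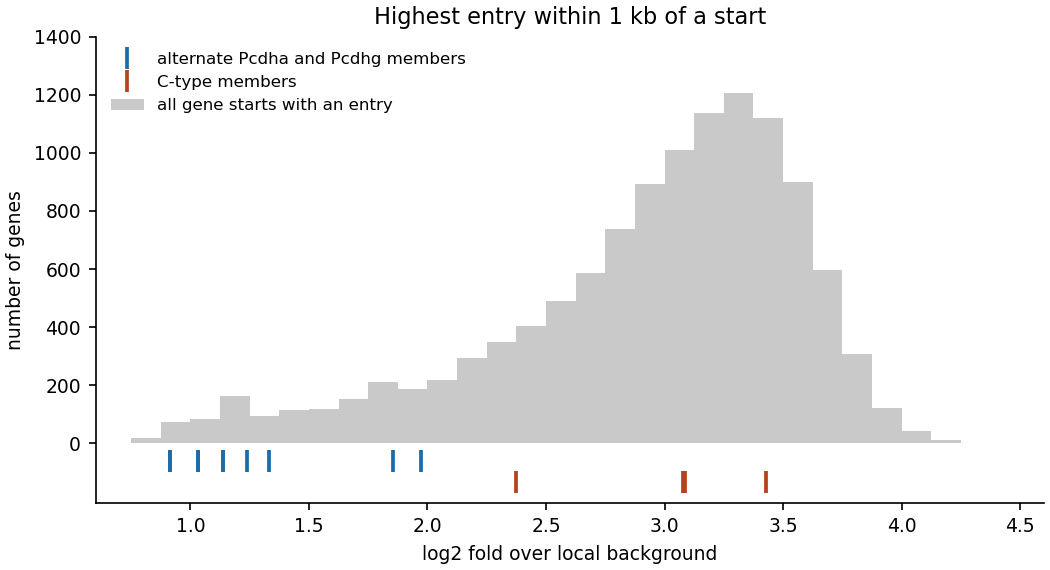
Number of genes (vertical axis) by log2 fold of the highest entry within 1 kb of a start (horizontal axis, grey bars), with the members that had an entry as ticks under the bars. The 10 alternate members lay in the lower tail, at most 3.93-fold, and 3 of the 4 C-type members lay near or above the median of 8.47-fold.

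Among all entries listed over the alternate exons of Pcdhg, weak sites lay mostly at annotated starts. In Pcdha, up to the start of Pcdhac1, they lay both at starts and away from them. The entries of the Pcdhg constant part, described below, lay at no member start. Over the alternate exons of Pcdhg, 37660775 to 37768580, windows of 1 kb around the starts covered 33.4% of the sequence and held 8 of the 10 entries. Of those 8 entries, only 3 had a q-value under 0.05. Over the alternate exons of Pcdha, 36929285 to 37023230, such windows covered 25.6% and held 2 of 2 entries. That stretch ends 3 kb past the start of Pcdha12, and 2 further weak sites, both with a q-value under 0.05, lay between it and Pcdhac1. One, at 37037718 to 37037927, had 2.36-fold and 14 reads and lay 17.6 kb past the start of Pcdha12. The other, at 37069530 to 37069693, had 2.51-fold and 15 reads and lay 20.5 kb before the start of Pcdhac1. In fold and reads they matched or exceeded the start entries of Pcdha7 and Pcdha9. Distances from summit to start were taken at the highest-fold entry of each member within the 1 kb window. They were 10 to 397 bp at alternate members (median 86.5 bp) and 110 to 265 bp at C-type members. The median for all gene starts with an entry was 102 bp. The same 14 members had an entry with a window of 500 bp and with one of 2 kb. The 2 entries of the Pcdhg alternate exons outside the windows shared an interval, 37767762 to 37768456, that lay 2.46 to 2.66 kb past the start of Pcdhga12 and reached 3.93-fold. Both of these entries had a q-value under 0.05.

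No entry was listed in the Pcdhb span, 37264998 to 37521419. All 22 genes, Pcdhb1 to Pcdhb22, lacked one, and the nearest summit lay 46.7 kb (Pcdhb1) to 209 kb (Pcdhb12) from their starts. The list stepped from a summit at 37218311 straight to 37644232, a distance of 426 kb. Of the 137828 steps between successive summits on the chromosomes, 184 (0.133%) were at least as long, and the median step was 6.46 kb. Of 100 kb windows laid from the lower edge of the domain, 4 in a row held no entry, compared with 16.7% empty windows over all chromosomes, assembly gaps included. For a count of 0 in this span, the exact 95% Poisson interval ends at 0.0144 entries per kb, against 0.0506 per kb over all chromosomes. The interval treats entries as independent, although they lie in clumps, so it is too narrow and is no test of depletion. The smallest pileup anywhere in the list was 11 reads at a background of 5.37, so sites under that depth would not be seen. The variable exons of a cluster resemble each other, and how the authors treated reads that map to several of them is not given in the sources used here. Low and missing values at alternate and Pcdhb starts are uncertain in that respect, which was not tested.

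Entry density differed between the clusters. The Pcdha span (36930285 to 37188897) held 9 entries, or 0.0348 per kb (exact Poisson interval 0.0159 to 0.0661). The Pcdhg span (37661775 to 37841873) held 33 entries, or 0.183 per kb (0.126 to 0.257). Over all chromosomes the value was 0.0506 per kb. Entries within 1 interval are not independent, and the Poisson intervals treat them as if they were. With 1 entry per interval the values were 0.0271 per kb for Pcdha and 0.105 per kb for Pcdhg. The 0.0506 per kb counts every summit, and no value per interval over all chromosomes was worked out to set beside these. The whole domain had 0.0549 entries per kb, close to the list as a whole.

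The constant ends of the Pcdha and Pcdhg clusters looked different. No exon annotation was used, so the constant part was taken as the sequence from 3 kb past the last member start to 1 kb past the shared end. In Pcdha it held 1 entry, a well supported site of 7.95-fold and 67 reads (51.9 to 85.1) at 37178074 to 37178851. This site lay 34.95 kb past the start of Pcdhac2 and 10.3 kb before the end of the span. Within 1 kb of the shared Pcdha ends there was no entry.

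In Pcdhg the constant part held 15 entries in 7 intervals over 20.3 kb, or 0.738 entries per kb. All were low beside the median gene start with an entry (8.47-fold and 102 reads). Their median was 2.54-fold and 25 reads, against 3.14-fold and 24 reads for the whole list. Fold ran between 2.09 and 3.25, reads between 15 and 39 and the local background between 6.33 and 11.3 reads, and 13 of them had a q-value under 0.05. The interval across the shared end, 37841480 to 37843059, was 1580 bp wide with 6 summits of 2.02 to 3.25-fold, of which 5 lay within 1 kb of the end. It reached to within 1 kb of the lower end of Diaph1, a formin gene that begins the next stretch of the chromosome. Counted by either gene end, all 21 Pcdhg members therefore had an entry, with 4 of 14 Pcdha and 0 of 22 Pcdhb members. This made 25 of 57 members (43.9%), against 69.3% of all genes, and the Pcdhg count rests on the shared end.

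**Figure D4:**
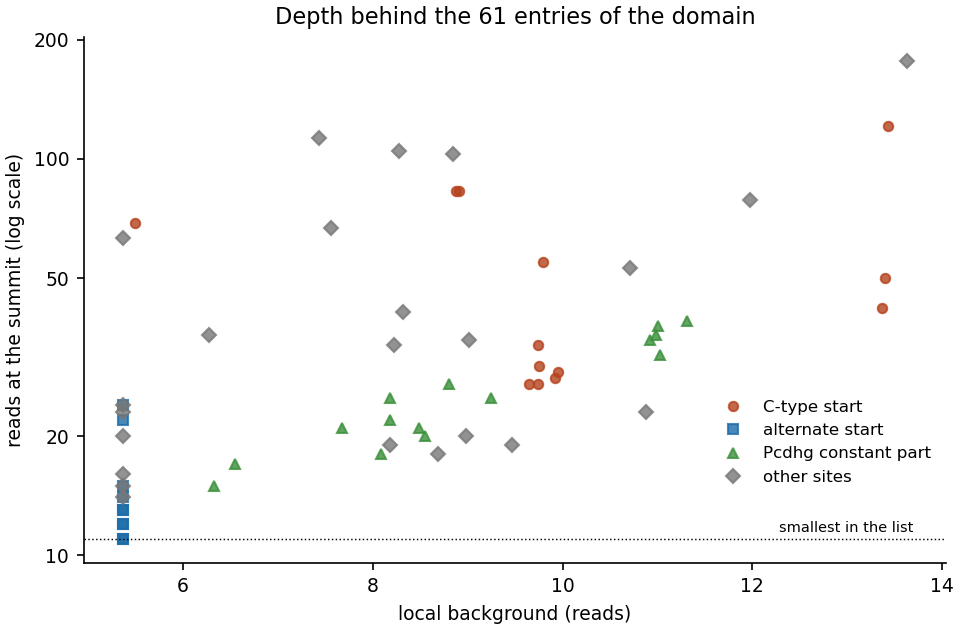
Reads at the summit (vertical axis, log scale) against the local background in reads (horizontal axis) for the 61 entries, by kind of site; the dotted line is the smallest pileup of the list, 11 reads. Alternate starts (squares) stood at the lowest background with 11 to 24 reads, entries of the Pcdhg constant part (triangles) at 15 to 39 reads, and the highest entries of C-type starts (circles) at 55 to 121 reads.

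Distal sites stood as high as the C-type starts. Between Pcdha and Pcdhb, an interval at 37217219 to 37218485 held 4 summits, the highest with 11.4-fold and 105 reads (85.9 to 127). It lay 29.4 kb past the end of the Pcdha span and was the last entry before the empty stretch over Pcdhb. Enhancers of Pcdha are known between its last exons and past its constant end, but their coordinates are not in the sources used here, so these sites were not matched to them. Before Pcdha, a narrow site of 320 bp at 36860603 to 36860922 had 10.1-fold and 63 reads (48.4 to 80.6), 69.5 kb before the start of Pcdha1. Inside Pcdhg, 5.42 kb before the start of Pcdhgc3, lay a site of 5.09-fold and 36 reads at 37800798 to 37801121.

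Past Pcdhg the sites ran through the Diaph1 gene. The nearest strong one, at 37852029 to 37852585, had 10.6-fold and 103 reads (84.1 to 125) and lay 10.4 kb past the end of the cluster. Further on, 3 sites stood at 35.6, 38.4 and 41.8 kb past the end, with 3.60-, 6.17- and 4.61-fold. A control region for Pcdhb and Pcdhg is known to lie past the constant exons of Pcdhg. Whether any of these sites belongs to it was not tested.

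Of the neighbouring genes, Taf7, a subunit of a general transcription factor, had the highest entry in the domain, 13.5-fold and 113 reads (93.1 to 136) at its higher-coordinate end (37643738 to 37644690). The higher end of Diaph1 had 12.2-fold and the most reads, 177 (152 to 205), at 37934878 to 37935877. Slc25a2, a mitochondrial carrier gene next to Taf7, had none at either end. The entry of Diaph1 was also the last inside the domain, 93.7 kb past Pcdhg. The first beyond it lay at 113 kb and had 6.46-fold, and the first before the domain lay 112 kb from Pcdha1 and had 18.7-fold.

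The non-clustered delta protocadherins are single genes of the same superfamily that keep a promoter each. All 10 had an entry within 1 kb of a gene end or listed start, with 3.92 to 14.5-fold (median 6.86) and 52 to 264 reads. Over all genes the share was 69.3%, and the genes with an entry had a median of 8.29-fold, above that of the delta genes. The highest was Pcdh9 at 14.5-fold and the lowest Pcdh7 at 3.92-fold. The 14 clustered members with an entry, counted at the start alone, had a median of 2.43-fold and 14.5 reads. The 4 C-type members among them fell within the range of the delta genes in fold and reads. Of the alternate members, Pcdhgb6 at 3.93-fold just reached that range in fold but not in reads, at 24. These 2 lists were not tested against each other.

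Genes known to act on clustered protocadherin promoters were looked up in the same way, at a gene end or listed start. Of 12 regulators, 10 had an entry, against 69.3% of all genes. Their fold was 7.45 to 12.5 (median 9.59), against a median of 8.29 over all genes with an entry. Ctcf, whose protein binds at these promoters and enhancers, had 10.003-fold and 184 reads. The cohesin genes Smc1a, Smc3, Stag1 and Stag2 had 11.9-, 9.92-, 9.08- and 8.30-fold, and Wapl, which unloads cohesin, 12.5-fold. Rad21 and Nipbl had none in the window. The strongest sites in their spans or within 3 kb outside had 10.3-fold (1.75 kb from the nearer end) and 6.87-fold (20.4 kb from it). The silencing factors Smchd1, Setdb1 and Rest had 9.35-, 9.55- and 7.45-fold, and Dnmt3b, a DNA methyltransferase of alternate promoters, 9.63-fold.

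Of 10 genes whose products bind protocadherins or act below them, 9 had an entry by the same count, against 69.3% of all genes. Their median was 10.1-fold, against 8.29-fold over all genes with an entry. The kinase gene Ptk2 had 10.2-fold, while Ptk2b, its relative that protocadherin tails hold inactive, had none in the window and a site of 4.56-fold 1.75 kb from its nearer end. Wasf1, Nckap1 and Cyfip2, subunits of the actin-regulating WAVE complex, had 7.58-, 11.1- and 11.2-fold. The kinase gene Fyn reached 12.1-fold, Ctnnb1, which encodes beta-catenin, 10.1-fold and the small GTPase gene Rac1 9.16-fold. Ret, a receptor tyrosine kinase gene, had 8.34-fold. Marcks, which encodes an actin-binding membrane protein, had 2.91-fold in the window and a site of 5.14-fold and 179 reads 1.82 kb from its nearer end.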

How the data were processed

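ATAC-seq of sorted cells was deposited as 1 peak list pooled over 2 replicates and filtered by the authors. Per the submitters' processing notes, the build was mm10 and the tools were MACS2 2.2.7.1, SAMtools 1.7.2, BWA 0.7.1.7, cutadapt 0.6.2 and Trim Galore. How the tools were set, duplicates treated, reads shifted for the Tn5 cut and peaks filtered is not given in the sources used here. The deposited fold is a ratio over the caller's local background, the deposited significance is the −log10 of p and q, and the deposited score was not used. Total depth is unknown.

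Reads and background were solved from the deposited fold and −log10 p through the Poisson tail (Python 3.11.15, scipy 1.17.1). Of the entries, 99.96% gave a pileup that was whole to 0.01 read, and 5000 of 5000 pileups generated for a check were recovered. Genes came from a GRCm38.p6 table with no strand or exons for chromosome 18. On other chromosomes starts came from RefSeq, for 17492 protein-coding genes. Windows were 1 kb to either side, and coordinates are counted from 1. Members, lists and the start rule were chosen with earlier results of these data known. All members were named, with the 10 other domain entries of highest fold and the 10 of most reads, most of which are described individually. Values were described without a test. Shares at gene starts over other chromosomes, and shares at gene ends, windows and steps over all chromosomes, served as background. Alternatives changed the window, q-value, upper 50%, entries per interval and reach.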

Additional observations from a re-analysis of the deposited data

How the results depend on the processing

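No replicate could be left out of the pooled list, and no alternative turned a result round. Of 44 alternatives over 10 results, 30 stayed within 1.5 times the count or within the counting interval, and 14 did not. The window of 500 bp or 2 kb and, in a choice made after seeing the data, any overlap of an interval with the window left the 14 members with a start entry in place. With a q-value under 0.05 they fell to 8 (5 in Pcdhg), with a median of 4.56-fold and 39.5 reads. With the upper 50% of entries they fell to 6 (2 in Pcdha, 4 in Pcdhg), with 6.82-fold and 62 reads, 30 entries in the domain and 0.0155 and 0.0611 entries per kb in the Pcdha and Pcdhg spans. Both settings leave out the weakest entries by construction. With 1 entry per interval the domain held 37, and the Pcdhg span 0.105 per kb. Pcdhb stayed at 0 under the settings run. Depth limits the alternate starts, at 11 to 24 reads.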

Other observations

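Several transcripts of the locus outside the member rule were also looked up. Gm37013, Gm38666 and Gm38667 are annotated from starts 41, 6 and 9 bp from those of Pcdha4, Pcdha6 and Pcdha7 to the end of Pcdhg. Of these only the start of Gm38667 lay within 1 kb of an entry, the 2.36-fold site of Pcdha7. The transcribed pseudogene Pcdhgb8 had no entry within 1 kb of either end, and the nearest to its lower end lay 6.04 kb away. The long non-coding RNA gene Gm29994, inside the Pcdhg constant part, had entries at both ends, of 2.83-fold at the lower and 2.38-fold at the higher.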
